A study of Mus musculus with 96 samples.

Results

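Suz12 occupancy and H3K27me3 were compared in neurons of wild-type (WT) mice, using the WT libraries of both antibodies, which are 6 of the 96 samples of the series (3 per antibody). The regions were 775 Suz12 and 4132 H3K27me3 counting windows, and they were related by overlap of at least 1 bp and by the gene to which a promoter window was assigned. Hippocampal nuclei of WT mice of C57BL/6N background, 6 months of age, had been sorted on the neuronal nuclear protein NeuN, and hippocampi of several animals were pooled for a library. The other samples of the series were Mutyh-/-, Ogg1-/- and double knockout libraries, NeuN- nuclei, H3K4me3 and inputs. The windows were a consensus over the replicates of all genotypes, so a window could have been kept without a peak in WT. All but 1 of the Suz12 windows and all H3K27me3 windows were 401 bp wide, which marks where reads were counted and not how far a domain reached.

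Polycomb repressive complex 2 (PRC2) places methyl groups on lysine 27 of histone H3. Suz12 is the subunit that holds the complex together, Eed binds the mark already placed, and Ezh1 or Ezh2 carries the catalytic site, with Ezh1 the more usual form in cells that no longer divide. In mammals the complex is drawn to unmethylated CpG-rich DNA at promoters of silent genes, above all of transcription factors that set up other tissues, and from there the mark can spread over neighbouring nucleosomes. The antibody against Suz12 therefore reads where the complex sits, and that against H3K27me3 what it has left on chromatin.

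Before the values, the DNA under the strongest windows is shown for a gene with both marks (Onecut3), a gene with a Suz12 window alone (Foxe1) and a gene with an H3K27me3 window alone (Tbx4). These are 300 bases from the middle of each window in GRCm38, plus strand, 5′ to 3′, with each CG dinucleotide in capitals. The Onecut3 window (chr10:80495572-80495871) and the Foxe1 window (chr4:46344432-46344731) lay wholly in coding sequence of these genes. The Tbx4 window (chr11:85889882-85890181) covered the start of an annotated exon, with 119 coding bases, and mostly intron besides.
Onecut3: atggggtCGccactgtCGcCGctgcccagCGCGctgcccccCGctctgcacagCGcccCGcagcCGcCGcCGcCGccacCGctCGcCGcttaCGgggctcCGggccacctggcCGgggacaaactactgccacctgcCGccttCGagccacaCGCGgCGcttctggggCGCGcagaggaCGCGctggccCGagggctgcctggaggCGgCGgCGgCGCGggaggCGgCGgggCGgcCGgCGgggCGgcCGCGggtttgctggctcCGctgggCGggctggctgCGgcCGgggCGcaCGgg
Foxe1: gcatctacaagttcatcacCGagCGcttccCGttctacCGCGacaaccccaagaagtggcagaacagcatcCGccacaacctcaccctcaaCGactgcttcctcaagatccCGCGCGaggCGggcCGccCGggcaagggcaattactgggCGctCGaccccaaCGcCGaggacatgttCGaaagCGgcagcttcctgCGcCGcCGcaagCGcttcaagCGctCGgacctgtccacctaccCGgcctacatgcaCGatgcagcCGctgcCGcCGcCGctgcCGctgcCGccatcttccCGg
Tbx4: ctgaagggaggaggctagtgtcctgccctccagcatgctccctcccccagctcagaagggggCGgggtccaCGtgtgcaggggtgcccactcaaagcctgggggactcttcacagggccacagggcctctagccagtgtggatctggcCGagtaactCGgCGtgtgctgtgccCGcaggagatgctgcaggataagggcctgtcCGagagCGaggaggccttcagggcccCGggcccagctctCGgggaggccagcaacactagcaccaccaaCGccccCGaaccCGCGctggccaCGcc
These stretches held 47 CG in Onecut3, 34 in Foxe1 and 15 in Tbx4. The H3K27me3 window of Onecut3 overlapped its Suz12 window, and its central 300 bases held 38 CG.

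Most Suz12 windows had H3K27me3 close by, whereas most H3K27me3 windows had no Suz12 near them. There were far fewer Suz12 windows (775 against 4132), which by itself lowers the share of H3K27me3 windows near Suz12. Of the 775 Suz12 windows, 193 (24.9%, 95% Clopper-Pearson interval 21.9 to 28.1%) overlapped an H3K27me3 window, 395 (51.0%) had one within 1 kb, 593 (76.5%) within 5 kb and 694 (89.5%) within 20 kb. Of the 4132 H3K27me3 windows, 192 (4.65%) overlapped a Suz12 window, and 466 (11.3%) had one within 5 kb. Suz12 windows were mostly at promoters (471, or 60.8%), H3K27me3 windows less so (1095, or 26.5%). A promoter here is the deposited annotation, which reached up to 2 kb from a start site. At promoters, 371 Suz12 windows (78.8%) had H3K27me3 within 5 kb, and 295 H3K27me3 windows (26.9%) had Suz12 within 5 kb. Outside promoters, 92 of the 1778 distal intergenic H3K27me3 windows (5.17%) had Suz12 within 5 kb.

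Signal was low and varied between libraries. Reads in windows were 10239, 26182 and 13044 in the Suz12 libraries 1 to 3 and 31303, 24158 and 34712 in the H3K27me3 libraries, with medians of 5, 15 and 9 and of 5, 4 and 6 reads per window. At least 1 read in each WT library was found in 542 Suz12 windows (69.9%) and 2716 H3K27me3 windows (65.7%). The rank correlation between WT libraries of 1 antibody lay between 0.228 and 0.544 over the 775 Suz12 windows and between 0.239 and 0.339 over the 4132 H3K27me3 windows, as a description. Values below are normalised reads per window, that is reads divided by a factor for each library. Repeat windows, with at least 50% of soft-masked bases, numbered 81 for Suz12 and 421 for H3K27me3. As a check of the sorted fraction, 14 of 16 neuronal marker genes had an H3K4me3 promoter window, Rbfox3 (which encodes NeuN), Camk2a and Slc17a7 among them, against 3 of 20 glial and vascular markers (Mbp, Oaf and Slc1a3) and 48.7% of all RefSeq protein-coding genes. Gfap, Aqp4, Mog, Aif1, C1qa, Cx3cr1 and Pecam1 had none.

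By promoter windows, 409 genes carried Suz12 and 1047 carried H3K27me3. Of these, 275 genes had both, which is 67.2% of the Suz12 genes and 26.3% of the H3K27me3 genes, 134 had Suz12 only and 772 had H3K27me3 only. Among the 21896 protein-coding genes of RefSeq, the background shares were 1.20% with both, 0.548% with Suz12 only, 3.10% with H3K27me3 only and 4.85% with any of them. In sorted nuclei in bulk, fewer nuclei with a mark and less of it in each nucleus cannot be told apart, and 2 marks at a gene may lie in different nuclei. Requiring at least 1 read in each WT library left 221, 141 and 627 genes, and dropping repeat windows left 273, 135 and 744. With promoters of up to 1 kb the counts were 207, 168 and 589, so fewer of the Suz12 genes then also had H3K27me3.

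The distance to the other mark differed between the classes with a single mark. There were 4132 H3K27me3 windows to lie near and only 775 Suz12 windows, which by itself makes distances to Suz12 longer. The classes also exclude the other mark at the same promoter by definition. The distance of windows placed at random was not tested. The 154 Suz12 promoter windows of genes with Suz12 only lay a median of 6759 bp from the nearest H3K27me3 window, and 64 (41.6%) had one within 5 kb and 104 (67.5%) within 20 kb. The 805 H3K27me3 promoter windows of genes with H3K27me3 only lay a median of 1130724 bp from the nearest Suz12 window, and 24 (2.98%) had one within 5 kb. Of the 134 genes with Suz12 only, 62 also had an H3K27me3 window assigned to them outside the promoter, against 15 of the 772 genes with H3K27me3 only that had Suz12 elsewhere. The limits of annotation showed in single genes. The Suz12 window of Slc32a1, the vesicular GABA transporter, overlapped an H3K27me3 window assigned elsewhere, and that of Zic2 lay 12 bp from one.

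Genes with both marks were ranked by the mean of their ranks for Suz12 and for H3K27me3, so a gene high in a single mark could stand lower. Rn45s and Zc3h7a stood far above the rest. Rn45s, the 45S pre-ribosomal RNA gene, which is present in many copies, had a mean of 1058 for Suz12 and 840 for H3K27me3, and Zc3h7a had means of 124 and 152. Among the other 6 of the 8 genes that led the class, the highest means were 32.6 for Suz12 (Tbx18) and 21.5 for H3K27me3 (Nkx6-1). Levels of Rn45s may count reads from other copies. The Zc3h7a window lay at almost the same position for H3K4me3 too, with 45.0, 24.4 and 23.7 normalised reads, and Rn45s had an H3K4me3 mean of 140. The source of the high values at both genes was not tested. Those 8 were taken from 216 genes with at least 1 read in each library and no repeat window.

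Nkx6-1, a homeobox factor of ventral spinal cord and pancreatic beta cells, had Suz12 values of 17.4, 33.7 and 38.9 and H3K27me3 values of 10.95, 23.2 and 30.2 in libraries 1 to 3. Onecut3, a cut-homeobox factor, had 32.2, 21.8 and 37.6 for Suz12 and 24.1, 18.8 and 16.4 for H3K27me3. Tbx18, a T-box factor of heart and urinary tract development, had 26.8, 30.7 and 40.3 for Suz12 and 15.3, 19.9 and 19.0 for H3K27me3. In Nkx6-1 and Tbx18 library 1 was the lowest for both antibodies, while in Onecut3 library 2 was the lowest for Suz12 and library 3 for H3K27me3. Zfp36l2, an mRNA decay factor, had means of 28.2 ± 4.91 (SD, n = 3) and 19.9 ± 6.00. Skor1, a transcriptional corepressor, had 27.8 ± 19.4 and 19.8 ± 7.27, and its Suz12 values ran from 5.36 to 40.3. Nr5a1, the nuclear receptor SF-1 of adrenal and gonad, had 28.7 ± 20.6 and 18.8 ± 8.48, with 52.5 in Suz12 library 2 against 17.4 and 16.1.

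Of the 134 genes with Suz12 only, 118 could be ranked by level, and the 8 highest held 3 forkhead factor genes (Foxe1, Foxl1 and Foxd2). Foxe1, a thyroid factor, had 24.1, 48.5 and 49.7 normalised Suz12 reads, and its nearest H3K27me3 window was 2665 bp away. The window assigned to the noncoding gene Foxl2os, which had 22.8, 48.5 and 26.8, lay in coding sequence of its neighbour Foxl2, an ovarian factor, although Foxl2 counts as without a mark by the deposited annotation. Foxl1, a factor of gut mesenchyme, had 13.4, 25.7 and 48.3. All 3 were lowest in library 1, the shallowest of the Suz12 libraries. Foxd2 had 28.4 ± 20.53, Zic5 27.2 ± 12.5, Sox1 26.1 ± 8.81, Hoxa13 25.9 ± 14.7 and Ebf3 25.9 ± 14.3 (SD, n = 3). For these 5 the next H3K27me3 window lay 1542, 9927, 4240, 31808 and 9492 bp away.

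Of the 772 genes with H3K27me3 only, 581 could be ranked. Tbx4, a T-box factor of hindlimb and lung, had 29.6, 22.1 and 20.7 normalised H3K27me3 reads. Fgf4, a growth factor of the early embryo, had 19.7, 22.1 and 17.2. A window assigned to Hoxa2, which patterns the hindbrain, had 10.95, 18.8 and 24.99, and was the only one of the 8 with a Suz12 window within 5 kb, at 1944 bp. It was assigned through a long transcript, and in RefSeq it lay in the noncoding gene Mira, between Hoxa6 and Hoxa7 and away from Hoxa2 itself. The epithelial genes Kdf1 (20.2 ± 2.81) and Cgnl1 (18.3 ± 2.46), the adaptor ubiquitin ligase Cblc (19.3 ± 6.27), Wdr86 (23.2 ± 3.18) and the DM-domain factor Dmrta1 (19.1 ± 5.32) completed it. Their nearest Suz12 windows lay between 203176 and 5013331 bp away. Across the 3 libraries the largest SD among these 8 genes was 7.04, against 20.6 for Suz12 among the leading genes with Suz12 other than Rn45s and Zc3h7a. At those genes the means of Suz12 were also higher, and the SD of H3K27me3 reached 9.73 (Nkx6-1).

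**Figure D1:**
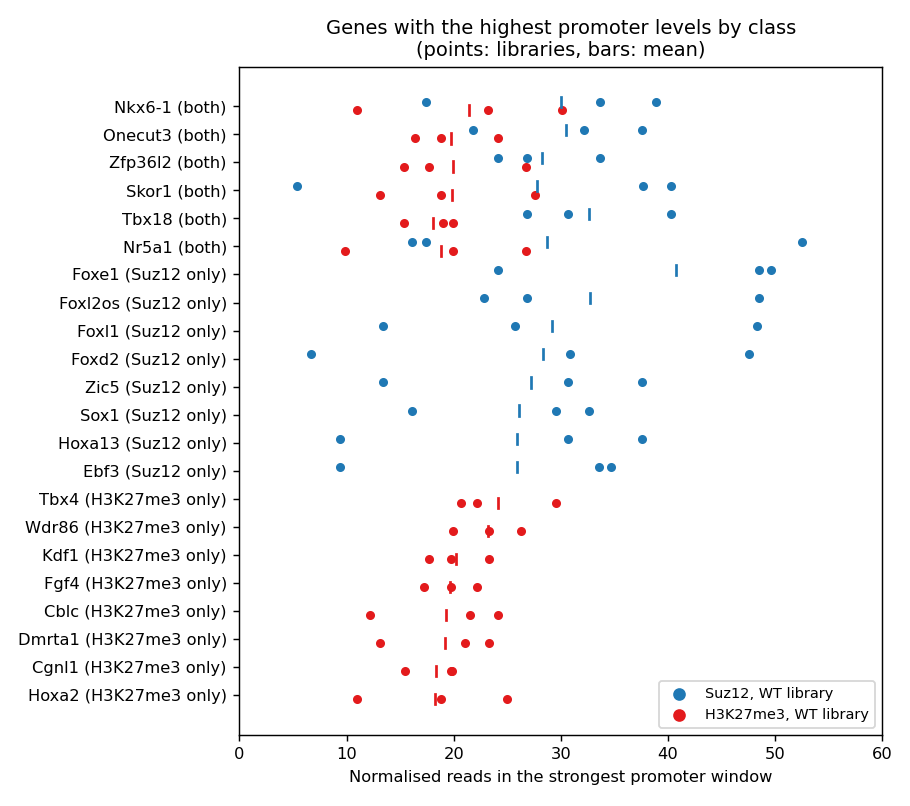
Normalised reads in the strongest promoter window (x axis) of the genes that led each class (y axis, class in brackets), with a point per WT library and a bar at the mean, Suz12 in blue and H3K27me3 in red. Rn45s and Zc3h7a are left out because their values exceed the axis. Among the genes shown with both marks, Suz12 has the larger SD over libraries (Nr5a1, 20.6 against 8.48 for H3K27me3) except at Zfp36l2 (4.91 against 6.00).

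Gene families were counted from fixed lists of protein-coding genes. Homeobox and paired-box factors outside the Hox clusters, which set cell identity in many tissues, had a promoter window in 98 of 134 genes (73.1%, against 4.85% of all protein-coding genes). In 48 both marks were present, in 24 Suz12 only and in 26 H3K27me3 only. The highest with both by Suz12 level were Tlx2, of enteric neurons, with 26.8, 42.6 and 33.6 for Suz12 and 10.95, 11.1 and 10.3 for H3K27me3, and Pax5, of B cells, with 8.05, 42.6 and 43.0 and with 10.95, 8.86 and 9.48. Gsx2, of the ventral telencephalon, and Msx1, of craniofacial mesenchyme, led those with Suz12 only at 23.5 ± 22.0 and 18.6 ± 8.13, with no Suz12 read for Gsx2 in library 1. Evx1 (17.4 ± 6.84) and Pax8 (16.6 ± 6.27), a thyroid and kidney factor, led those with H3K27me3 only. Of the 36 homeobox genes without either mark, 18 had an H3K4me3 promoter window, which is near the 48.7% of all protein-coding genes. In the classes with both, with Suz12 only and with H3K27me3 only it was 12 of 48, 4 of 24 and 8 of 26. Over the whole list the share was 31.3%. The list was built from gene symbols and also took in Enc1, a kelch-repeat gene that is no homeobox factor, which is among those 18.

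Hox genes, which pattern the body axis, were split differently. Of 39, 14 had Suz12 only, 2 had both (Hoxd8 and Hoxb6), 1 had H3K27me3 only (Hoxa2, by the distant window described above) and 22 had no window, and none had an H3K4me3 promoter window. Within the 4 clusters there were 21 Suz12 windows and 6 H3K27me3 windows. The Hoxa cluster (chr6:52155367-52260880) held 6 and 1, Hoxb (chr11:96194316-96368254) 4 and 3, Hoxc (chr15:102921131-103036856) 4 and 1, and Hoxd (chr2:74668225-74765142) 7 and 1, of which 1 Suz12 window, in Hoxb, overlapped H3K27me3. Suz12 windows there lay a median of 10140 to 28508 bp from the nearest H3K27me3 window. Windows of 401 bp do not show how far a domain reached. These counts and distances therefore cannot tell whether H3K27me3 covered Hox genes without a window. The genes with both had values of 12.1, 19.8 and 17.4 for Suz12 and 3.29, 12.2 and 24.99 for H3K27me3 at Hoxd8, and of 4.02, 19.8 and 17.4 and 9.86, 19.9 and 12.1 at Hoxb6. Hoxa13 and Hoxd9, of limb and posterior trunk, led those with Suz12 only at 25.9 ± 14.7 and 22.2 ± 13.1.

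Other developmental factor families were also above the background of 4.85%. T-box and GATA factors had both marks in 11 of 22 genes, Suz12 only in 2 (Tbx1 and Eomes) and H3K27me3 only in 1 (Tbx4). Tbx21, which directs T helper cells, had 21.3 ± 3.42 for Suz12 and 6.47 ± 3.10 for H3K27me3. Eomes, of intermediate neuronal progenitors, had 5.36, 26.7 and 20.1 for Suz12. Forkhead factors had both in 6 of 44, Suz12 only in 9 and H3K27me3 only in 4. Foxd3, of neural crest, had 26.0 ± 12.5 for Suz12 and 16.2 ± 6.43 for H3K27me3, and Foxc1, of mesenchyme and vessels, 22.6 ± 9.59 and 19.9 ± 6.31. Foxn4 (11.2 ± 1.84) and Foxi2 (8.92 ± 4.99) led those with H3K27me3 only.

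Sox factors had both in 4 of 19, Sox2, Sox7, Sox14 and Sox17, with Sox7, of endothelium, at 24.3 ± 7.73 and 12.2 ± 1.05 and Sox17, of endoderm, at 19.6 ± 3.89 and 4.87 ± 2.42. Sox1 had Suz12 only, and Sox10 (9.85 ± 2.02), of oligodendrocytes and neural crest, and Sox6 (4.73 ± 1.67) had H3K27me3 only. Basic helix-loop-helix factors had both in 7 of 45, Suz12 only in 2 and H3K27me3 only in 5. Olig2, the oligodendrocyte lineage factor, had 17.4, 25.7 and 8.05 for Suz12 and 10.95, 15.5 and 15.5 for H3K27me3. Bhlhe23 had 16.4 ± 8.77 and 13.2 ± 3.20. Twist1, of mesoderm, had 21.5 ± 8.89 for Suz12, and Ptf1a, of pancreas and cerebellum, 11.1 ± 11.03. Hes3 (12.2 ± 5.86) and Neurog3 (11.2 ± 6.44), of endocrine progenitors, led those with H3K27me3 only. Zic, Gli and Glis factors had both in 0 of 11, Suz12 only in 2 (Zic5 and Zic2) and H3K27me3 only in 5, with Zic4 at 13.7 ± 5.07 and Gli3, the hedgehog effector, at 12.1 ± 9.45.

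Among secreted signals, Wnt ligands had both in 6 of 19 (Wnt1, Wnt2b, Wnt3, Wnt3a, Wnt8b and Wnt10b), led by Wnt3 at 14.9 ± 6.03 for Suz12 and 8.99 ± 4.68 for H3K27me3 and Wnt10b at 11.001 ± 6.26 and 7.60 ± 5.99, and H3K27me3 only in Wnt6. BMP and TGF-beta ligands and antagonists had both in 4 of 41, Suz12 only in 2 and H3K27me3 only in 4. Bmp2 had 13.4, 8.91 and 21.5 for Suz12 but 0, 1.11 and 6.03 for H3K27me3, and Tgfb1 14.5 ± 9.41 and 9.93 ± 6.16. Bmp7 (10.2 ± 4.93) and Gdf7 (6.97 ± 5.28) had Suz12 only, and Bmp8b (15.9 ± 7.31) and Bmp4 (11.9 ± 3.70) led those with H3K27me3 only. Fibroblast growth factors had both in 1 of 22, Fgf8, at 15.6 ± 9.65 and 12.6 ± 5.26, and H3K27me3 only in 4, with Fgf3 at 16.3 ± 5.88 after Fgf4. In the hedgehog pathway Ihh had both and Dhh had H3K27me3 only, of 11 genes.

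Lists of axon guidance, potassium channel and receptor genes were close to the background of 4.85% or modestly above it. The short list of neuronal markers, described below, was further above it, with a window in 4 of 16 genes. Axon guidance genes had a window in 6 of 71 (8.45%), potassium channels in 8 of 92 (8.70%) and glutamate and GABA receptors in 4 of 45 (8.89%). Ntn1, the netrin-1 ligand, had both, with 20.1, 23.8 and 18.8 for Suz12 and 12.0, 7.75 and 9.48 for H3K27me3, and so did Ephb4, at 11.3 ± 5.50 and 4.37 ± 1.08. Epha2 (7.93 ± 2.10) and Sema3f (5.30 ± 2.80) had H3K27me3 only. Kcna7, a channel of heart and muscle, had both at 25.6 ± 16.5 and 8.42 ± 3.95. Kcnj8, of pericytes and smooth muscle, had 6.57, 3.32 and 31.9 for H3K27me3, with library 3 alone high, and Kcnip1 had 11.3 ± 5.76. The NMDA receptor subunit genes Grin2d (14.2, 13.3 and 14.6 for H3K27me3) and Grin2c (2.68, 20.8 and 16.1 for Suz12) were each in a class with a single mark, as was Grm6 (9.25 ± 5.31), the receptor of retinal bipolar cells.

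Genes of GABAergic interneurons, a minority of hippocampal neurons, were among the neuronal markers with a mark. Gad1 and Gad2, the enzymes that make GABA, had H3K27me3 only, with 4.38, 14.4 and 13.8 and with 5.48, 7.75 and 5.17. Gad1 also had H3K4me3, at 24.4, 6.83 and 16.2. Slc32a1, which loads GABA into vesicles, had Suz12 of 8.05, 16.8 and 9.40. Prox1, which marks granule cells of the dentate gyrus, had 5.48, 14.4 and 11.2 for H3K27me3 and 7.72, 8.78 and 8.62 for H3K4me3. The other 12 neuronal markers had neither mark. Thus 4 of 16 had a window, against 4.85% of all protein-coding genes and 6 of 20 glial and vascular markers. Whether these short lists differ from each other or from the background was not tested.

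Of glial and vascular markers, Olig1 and Olig2 had both, and Cldn5, of endothelium (11.7 ± 1.60), Oaf (10.2 ± 4.66), Sox10 and Pdgfra (7.18 ± 6.91) had H3K27me3 only, while 14 of 20 had neither. The share with any class was 30.0%, against 4.85% of all protein-coding genes. Of 80 ribosomal protein genes and 12 PRC2 subunit genes, none had Suz12 or H3K27me3 at the promoter, and 59 and 12 had H3K4me3. For a list of only 12 genes, 0 is near the share of 4.85%. Of 19 PRC1 subunit genes, Cbx8 had Suz12 (2.68, 10.9 and 28.2), and all 19 had H3K4me3, against 48.7% of protein-coding genes. Of 11 genes on which the study itself dwells, Oaf and Wnt6 had H3K27me3 (Wnt6 at 5.48 ± 1.17). Rbfox3, Camk2a, Grin1, Grm7, Bdnf, Hdac4, Sema4c, Npr3 and Glis1 had neither, and all 11 had H3K4me3.

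**Figure D2:**
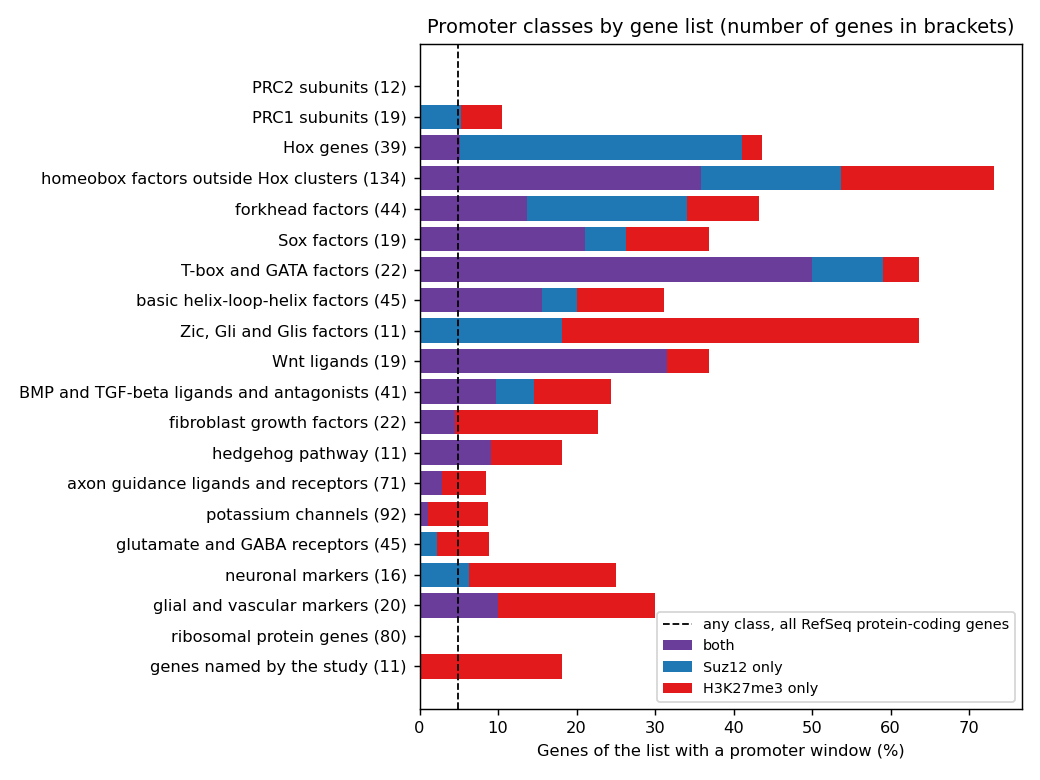
Share of the genes of each list (y axis, number of genes in brackets) with a promoter window, in percent (x axis), stacked by class, with purple for both marks, blue for Suz12 only and red for H3K27me3 only. The dashed line is the share of all RefSeq protein-coding genes with any class, 4.85%, and homeobox factors reach 73.1%.

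H3K27me3 was higher where Suz12 was also found, while Suz12 differed little with H3K27me3. Over promoter windows without repeats, median H3K27me3 at the 285 windows of genes with both marks was 9.86, 9.96 and 12.1 in libraries 1 to 3, against 6.57, 6.64 and 6.89 at the 774 windows of genes with H3K27me3 only. The difference was 0.59 ± 0.12 on the log2(value + 1) scale (SD, n = 3 libraries) and was positive in 3 of 3 libraries. Median Suz12 at genes with both was 7.38, 18.3 and 16.1 against 6.70, 17.8 and 14.8 at genes with Suz12 only, a difference of 0.09 ± 0.05. An exact sign permutation test, two-sided over the 3 libraries, gave p = 0.25 for each, which is the smallest p that 3 libraries allow. Compared by overlap over all windows, the difference was 1.27 ± 0.01 for H3K27me3 (192 windows against 3940) and 0.75 ± 0.03 over promoter windows (114 against 981), each with exact p = 0.25. For Suz12 it was 0.16 ± 0.14 (193 against 582), and it was 0 in library 3 (exact p = 0.50).

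The same windows and classes were also ranked by level within each library, which shows the same difference in another form and is no second test. With 4 ranks of level of about equal size, from the lowest to the highest rank of H3K27me3, the share of windows at genes with both marks went from 17.6% to 44.1% in library 1, from 12.7% to 47.6% in library 2 and from 12.9% to 46.7% in library 3. For ranks of Suz12 level the shares lay between 63.0% and 73.5% in all 3 libraries.

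**Figure D3:**
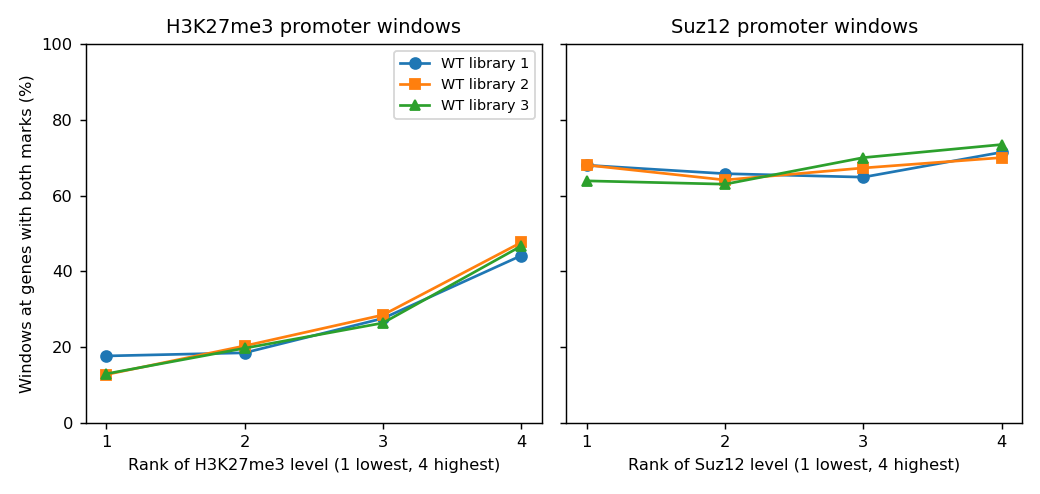
Share of promoter windows, in percent (y axis), that belong to genes with both marks, by rank of level from 1 (lowest) to 4 (highest, x axis), with a line per WT library, for H3K27me3 windows (left) and Suz12 windows (right). The H3K27me3 lines end between 44.1% and 47.6%, and the Suz12 lines stay between 63.0% and 73.5%.

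CpG content also differed by class. The CpG ratio is the number of CG dinucleotides over that expected from the C and G content. Its median was 0.83 at Suz12 promoter windows of genes with both marks and 0.85 at those of genes with Suz12 only, 0.65 at H3K27me3 windows of genes with both and 0.38 at those of genes with H3K27me3 only. A ratio above 0.6 was found in 85.4%, 85.6%, 55.4% and 25.8% of these windows, against 83.6% of the 11771 H3K4me3 promoter windows, all of 401 bp. Median GC content was 68.3%, 69.1%, 59.9% and 53.6%. The windows of Onecut3, Foxe1 and Tbx4 whose bases are given above had ratios of 0.88 (Suz12), 1.14 and 0.50. Of the 8 leading genes with H3K27me3 only, 6 had a ratio above 0.6, unlike most of their class, and Tbx4 and Hoxa2 (0.089) were below it.

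The difference in H3K27me3 level was present in both ranges of the CpG ratio, within which the ratio itself still differed. Above 0.6 its median was 0.80 with both marks and 0.75 with H3K27me3 only, and up to 0.6 it was 0.40 and 0.28. What part of the difference goes with CpG content was not tested. With a ratio above 0.6, median H3K27me3 was 12.0, 12.2 and 13.8 at 158 windows of genes with both marks and 7.67, 8.86 and 9.48 at 200 windows of genes with H3K27me3 only, a difference of 0.50 ± 0.09 (log2, SD, n = 3). Up to 0.6 it was 7.67, 8.86 and 9.48 at 127 windows against 5.48, 5.54 and 6.89 at 574, a difference of 0.47 ± 0.10. In both, all 3 libraries had the higher median at genes with both marks (exact p = 0.25, the smallest possible). For Suz12 the differences were 0.04 ± 0.07 above 0.6 and -0.19 ± 0.04 up to 0.6, the latter over 46 and 22 windows (exact p = 1.0 and 0.25).

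The windows of both antibodies were offset at shared genes. Over 273 genes with both marks and no repeat window, the centres of the strongest windows lay a median of 641 bp apart (quartiles 255 and 1188 bp), and 102 pairs overlapped. The Suz12 window was nearer to the start site in 173 genes (63.4%), with medians of 320 bp for Suz12 and 583 bp for H3K27me3. The H3K27me3 window lay downstream of the Suz12 window in 145 genes and upstream in 127.

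H3K4me3, a mark of active promoters, was present in part of each class. Genes with both marks had an H3K4me3 promoter window in 130 of 275 (47.3%), those with Suz12 only in 55 of 134 (41.0%) and those with H3K27me3 only in 229 of 772 (29.7%), against 48.7% of all RefSeq protein-coding genes. Where H3K4me3 was present it was lower than at the 10746 genes with H3K4me3 and neither mark. Median normalised H3K4me3 reads in libraries 1 to 3 were 11.6, 7.81 and 10.8 at genes with both marks, 19.3, 10.7 and 14.0 with Suz12 only and 16.7, 10.7 and 14.0 with H3K27me3 only, against 28.3, 17.6 and 25.8 with neither. Genes with both were lowest in 3 of 3 libraries, at 0.409, 0.444 and 0.417 times the level with neither. Median CpG ratios of these H3K4me3 windows were 0.86, 0.87, 0.80 and 0.80.

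**Figure D4:**
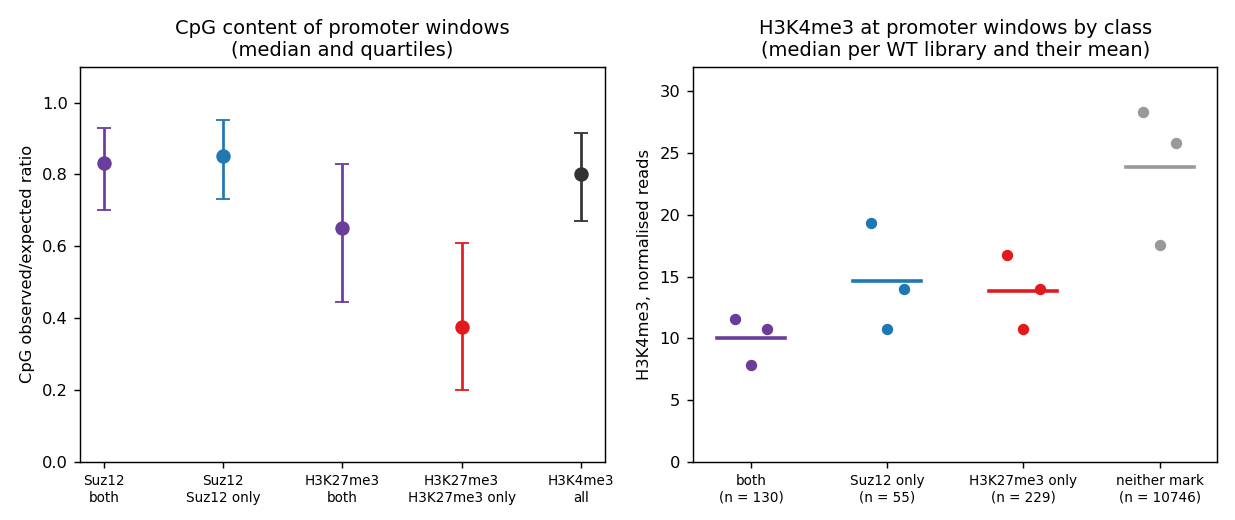
Left, CpG observed/expected ratio (y axis) of promoter windows by antibody and class (x axis), median with quartiles as bars. Right, median normalised H3K4me3 reads (y axis) per WT library (points) and their mean (line) at genes of each class with an H3K4me3 window; genes with both marks have the lowest value in each library.

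In NeuN- nuclei, which served only as a second fraction, 786 genes had an H3K27me3 promoter window (3.33% of protein-coding genes) and 39 a Suz12 promoter window. Of the neuronal genes with both marks, 155 of 275 (56.4%) also had H3K27me3 in NeuN- nuclei, against 35 of 134 (26.1%) with Suz12 only and 205 of 772 (26.6%) with H3K27me3 only. Suz12 was found in NeuN- nuclei at 16 (5.82%), 11 (8.21%) and 3 (0.389%) of these genes. In all, 39 genes had it there, beside 21896 protein-coding genes in RefSeq.

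Over the 193 overlapping pairs, higher Suz12 went with higher H3K27me3, and the relation was weaker without a set of very high windows. Spearman's rho of the mean levels was 0.562 (n = 193 pairs), with 0.488, 0.554 and 0.354 between libraries of the same number. It was 0.585 over 164 pairs without repeats and 0.361 over 170 pairs without those above 40 normalised reads in both. Over 113 promoter pairs it was 0.382, and over 52 pairs outside promoters without repeats it was 0.761. By gene, over the strongest promoter windows of 273 genes with both marks, it was 0.296, with 0.116, 0.241 and 0.118 between libraries of the same number. These are descriptions across windows, which share libraries, depth and base composition. Of the 23 pairs above 40 in both, 4 were at promoters (Rn45s, Zc3h7a, Aida and Sfi1), 5 held a repeat window and 14 lay outside promoters without one. These 23 took 81.1%, 82.0% and 73.9% of the Suz12 reads of the 193 pairs. The highest was an exonic repeat window assigned to Lrrc4c, with means of 4410 and 1326.

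The balance of both antibodies at the same place was tested over the 193 pairs, with each library centred on its median, so that it asks which pairs had relatively more Suz12 or more H3K27me3 than the typical pair. With the planned limma-trend fit, which leaves out the pairing of libraries, no pair passed an adjusted p of 0.05 in either direction (0% of pairs). At an unadjusted p under 0.05 there were 21 (10.9%). An edgeR fit on recovered reads, also without pairing, called 0, with 18. Replicate numbers paired the libraries, and with a replicate block 2 pairs (1.04%) were relatively high in Suz12 and 7 (3.63%) relatively high in H3K27me3. That fit had 37 pairs (19.2%) at an unadjusted p under 0.05. DESeq2 on recovered reads called 1 and 6. Without Suz12 library 1, 0 and 5 pairs were called. The promoter pairs of the developmental genes above were not among the calls of the blocked fit.

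The pair with the smallest p towards H3K27me3 was a distal intergenic window assigned to Ndufb3 (chr1:58613774-58614174), with 0, 0.99 and 0 for Suz12 and 10.95, 21.0 and 12.9 for H3K27me3. Its log2 difference of Suz12 minus H3K27me3 was -3.55 (SE 0.74, limma adjusted p = 0.114, and 0.012 with the block), and the adjusted p ranged from 0.0027 to 0.571 over the alternatives. A window assigned to 4931408C20Rik, at a promoter, had 0, 6.93 and 4.03 against 21.9, 27.7 and 24.99 (difference -2.85, SE 0.66, limma adjusted p = 0.116, and 0.021 with the block). In both, the libraries of the antibodies did not overlap. Towards Suz12 the smallest p belonged to a window assigned to Mir101c (chr9:3035854-3036254), with 25.5, 30.7 and 24.2 for Suz12 and 3.29, 3.32 and 0 for H3K27me3 (difference 3.45, SE 0.75, limma adjusted p = 0.114, and 0.012 with the block). This window had 94.0% of masked bases, and the other pair called towards Suz12, at Rab10os, had 76.3%. Aida, the other promoter called towards H3K27me3, had 88.5, 77.2 and 0 for Suz12 against 229, 153 and 175.

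**Figure D5:**
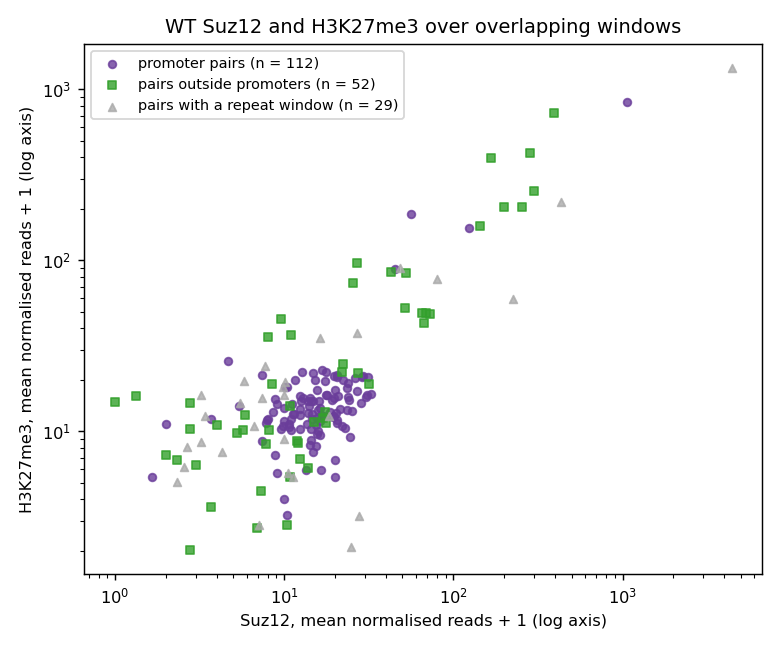
Mean normalised reads plus 1 of Suz12 (x axis) and H3K27me3 (y axis), both on log axes, over 193 overlapping pairs of windows, with promoter pairs, pairs outside promoters and pairs with a repeat window marked. Most promoter pairs lie in a compact cloud, and 23 pairs lie above 40 in both.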

How the data were processed

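ChIP-seq reads were single-end. According to the labels and the methods of the study, the authors aligned them to GRCm38 with Bowtie2 (2.3.5.1), called enriched regions with epic2 (FDR 0.05), kept regions found in several replicates, counted reads with DiffBind (3.10.1) and annotated windows with ChIPseeker (1.36). Handling of duplicates, blacklisted regions and input is not given in the sources used here. The authors deposited signal values, which are window read counts scaled by a library factor. Dividing by the smallest step of a library gave whole reads for all values, within a tolerance of 0.1. The planned test for these values was limma (3.58.1, R 4.3.3) with trend on log2(value + 1), which understates changes at low values, with the 3 WT Suz12 and 3 WT H3K27me3 libraries of NeuN+ nuclei in the fit and Benjamini-Hochberg adjustment over 193 pairs. edgeR (4.0.16) and DESeq2 (1.42.0) were run on recovered reads. Replicate numbers come from the labels. Deviations of same-numbered Suz12 and H3K27me3 libraries correlated at 0.311, 0.348 and 0.270 over the pairs, all above 0.1, so the numbers were taken to pair them. Masked bases, GC and CG were read from the GRCm38.p6 RefSeq sequence with pysam (0.24.0).

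Genes named are the 8 with the highest level in each class (for both marks, the mean of the ranks of both levels), the pair with the smallest p in each direction where none passed, the 11 genes named by the study, and the 2 highest members of a list in a class. Other pairs, the genes whose sequence is printed beyond the rule (Onecut3, as Rn45s and Zc3h7a were passed over, and Nkx6-1 for its untranslated bases) and the split at a CpG ratio of 0.6 were chosen after values were seen. Members and gene lists were chosen with earlier results of these data known. Replicates may share sources of variation that the labels do not give, and p-values measure the spread between these libraries. The binomial interval covers counting error only. Results for a few members of the gene lists are not reported here.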

Additional observations from a re-analysis of the deposited data

How the results depend on the processing

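Of 88 recomputed values, 71 were counted as staying with the main value and 17 as moved. Test calls were judged by their threshold, and level differences and correlations by the spread of the main value. Gene counts by class had no such spread. Their changes with promoters of up to 1 kb, from 275 to 207 with both marks and from 772 to 589 with H3K27me3 only, are among the 71. The limma balance test, planned without a replicate block, gave 0 calls in each direction. Calls towards Suz12 were 1 with a pseudocount of 5, 1 with DESeq2 and 2 with the replicate block. Calls towards H3K27me3 were 1, 6 and 7 under these alternatives, and between 0 and 5 when a library was left out, with 5 only without Suz12 library 1. Towards Suz12 each left-out library gave 0. The share of Suz12 windows that overlap H3K27me3 (24.9%) fell to 15.7% with an overlap of at least 200 bp and rose to 51.0% within 1 kb and 76.5% within 5 kb, as the wider limits by construction admit more windows. By any annotation instead of promoters, 438 genes had both marks, 91 Suz12 only and 1771 H3K27me3 only. The rank correlation over pairs fell from 0.562 to 0.382 over promoter pairs and to 0.361 without pairs above 40 reads in both, the last added after seeing the data. The log2 difference in H3K27me3 level with and without Suz12 (1.27) was 0.87 with a pseudocount of 5, 1.30 without repeat windows and 0.75 over promoter windows. The cause of these shifts was not tested. The replicate block applied only to the balance test. With 4 to 15 median reads per window, small differences at a single gene were not detectable, and a missing window does not show that a mark is absent.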
